A study of Drosophila melanogaster with 12 samples.

Results

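The dpr and DIP genes of Drosophila melanogaster were followed through an experiment that recovered the RNA bound by Pumilio (Pum) from adult fly heads. The members are all genes whose symbol is dpr with a number or DIP with a Greek letter, which gave 32 of the 10422 genes with 3′-end counts, 21 of them dpr and 11 DIP. RNA came from UV-cross-linked head powder of adults, males and females in equal amounts. In Pum xRIP (4 libraries) an anti-Flag antibody recovered Pum from pumFlag flies, whose endogenous Pum carries a C-terminal Flag-HA tag. In control xRIP (4 libraries, labelled w118) the same immunopurification was run on w1118 flies, which carry no tag. Input (4 libraries) was head material without immunopurification, from the pum and w118 flies and from a pair of preparations of mixed genotype whose columns are named fne and rbp9. GEO's labels give the genotype of every library as wt, so the tag is known from the titles and the study's methods. The 3′-end sequencing that followed (xRIP-3′-seq) counts the ends of transcripts.

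Dpr and DIP proteins are small cell surface proteins of the immunoglobulin superfamily. A Dpr on one neuron binds particular DIPs on another, and the matching contributes to the choice of synaptic partners and to the survival of neurons in the visual system and at the neuromuscular junction. The founding member, dpr1, is named after a defective proboscis extension response to salt. Pum belongs to the PUF family of RNA-binding repressors. It recognises the Pumilio Response Element (PRE) in 3′ UTRs and lowers the output of the bound mRNA.

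The element was searched as TGTANATA, where N is any base, on the sense strand of the longest 3′ UTR annotated for the gene. It occurred 49 times in 22 of the 32 genes. The sites of dpr10, which held the most copies, and of dpr5 are shown because only these 2 genes exceeded input in Pum xRIP by the test used here. Those of dpr19 and DIP-kappa are shown as a dpr and a DIP gene for which every Pum xRIP library lay above every other library. Each line gives 30 bases in the sense direction, 5′ to 3′, from the Release 6 assembly (dm6) with Ensembl 3′ UTRs, and capitals mark the element.

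dpr10 site 1, minus strand, chr3L:10149023-10149052: aatcggagccaTGTACATAaacttctcacg
dpr10 site 2, minus strand, chr3L:10148758-10148787: gaaacataattTGTATATAgtgtagcactt
dpr10 site 3, minus strand, chr3L:10148648-10148677: actcagatcgtTGTAAATActattgggatt
dpr10 site 4, minus strand, chr3L:10148568-10148597: agtttaagcaaTGTACATActtagagatac
dpr10 site 5, minus strand, chr3L:10147970-10147999: ctgatcaaaatTGTAAATAaacctgcatat
dpr5 site 1, plus strand, chr3R:11505672-11505701: tcgcgttgtctTGTAAATAtgtaaattgag
dpr5 site 2, plus strand, chr3R:11505914-11505943: tccgtaacgaaTGTAAATAaatgtttaatc
dpr19 site 1, plus strand, chr2L:10379247-10379276: aaatagaagatTGTAAATAgatcattgaca
dpr19 site 2, plus strand, chr2L:10379326-10379355: taagaataaacTGTAAATAgacttccatta
dpr19 site 3, plus strand, chr2L:10379728-10379757: gtatgtacaacTGTAAATAaatattacttc
DIP-kappa site 1, minus strand, chr2L:13677359-13677388: gattaattaatTGTAAATAtttcaatggtg
DIP-kappa site 2, minus strand, chr2L:13677302-13677331: tgaaacttcgcTGTATATAtaaagaaagct
DIP-kappa site 3, minus strand, chr2L:13677180-13677209: taagtttttatTGTAAATAattatctcata

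In the 40 sites outside chromosome arm 2R, the variable base was A in 23, T in 10, C in 6 and G in 1.

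Together the 32 genes took a larger share of the RNA recovered with Pum than of either other kind of library. Levels are given as CPM, the count scaled to the size of the library after TMM normalisation. Each transcript contributes its end, so levels need no scaling to gene length. The summed level of the 32 genes averaged 4356 ± 398 CPM in the Pum xRIP libraries, 161 ± 32.2 CPM in those of control xRIP and 740.1 ± 55.6 CPM in the inputs (n = 4 each, SD), which is 5.88 times the input and 27.0 times the control. The 3 groups did not overlap, spanning 3971 to 4885 CPM for Pum xRIP, 114 to 189 CPM for control xRIP and 668 to 795 CPM for input. The gene dpr12 alone made up 37.2% of the sum in Pum xRIP and 23.1% in input, and without it the sums were 2736 ± 265 CPM for Pum xRIP, 159 ± 31.7 CPM for control xRIP and 569 ± 53.5 CPM for input (n = 4 each, SD). By family the sums were 3981 ± 448 CPM in Pum xRIP against 666 ± 41.8 CPM in input for the dpr genes, and 375 ± 77.5 CPM in Pum xRIP against 74.6 ± 14.9 CPM in input for the DIP genes (SD, n = 4 each). Without DIP-kappa the DIP sum was 147 ± 52.0 CPM in Pum xRIP against 52.3 ± 12.1 CPM in input (SD, n = 4 each), a ratio of 2.81 in place of 5.03. The sums without dpr12 and without DIP-kappa were chosen after seeing the data. Since whole heads were used, fewer cells with a transcript and less of the transcript per cell cannot be told apart in any of these levels.

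**Figure D1:**
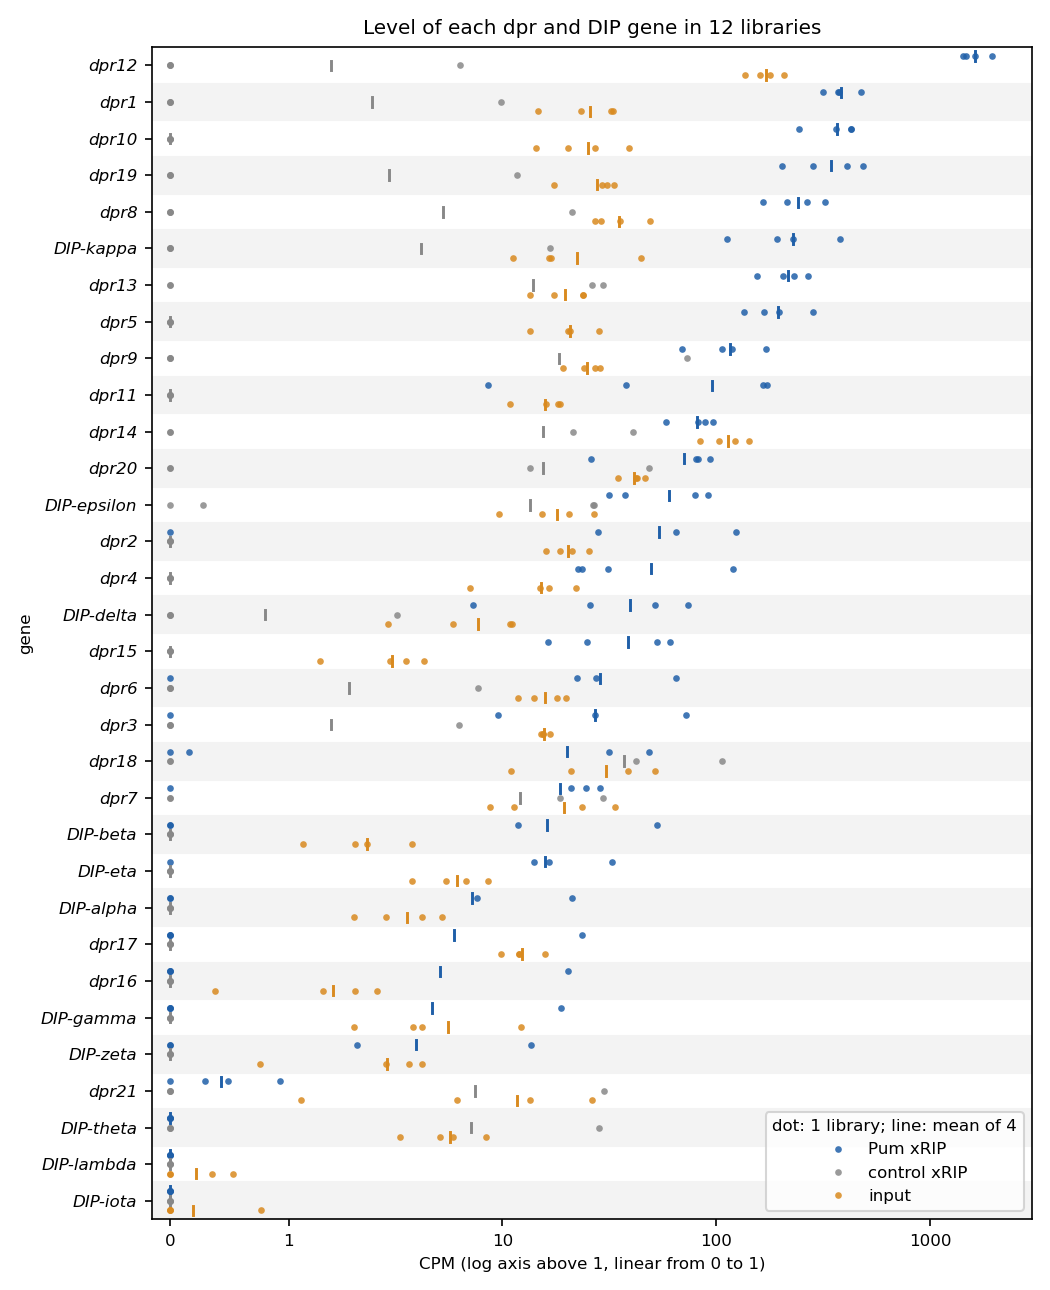
Level of each gene (rows, ordered by mean level in Pum xRIP) on a CPM axis that is logarithmic above 1 and linear below it. Dots are single libraries and short lines the mean of 4, for Pum xRIP, control xRIP and input from top to bottom within a row. Most control xRIP dots lie at 0, and the Pum xRIP dots of the genes in the upper rows lie to the right of all input dots.

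Library totals were 3050717 to 5051009 counts in Pum xRIP, 3342790 to 4485996 counts in control xRIP and 9563433 to 13726254 counts in input, and 19 to 27, 3 to 8 and 30 to 31 of the 32 genes were detected per library in these groups. The counts carried no molecular identifiers, so limits set from counts cover counting error only, and p-values measure the spread between the labelled samples, which may be technical. Markers of head cell types were present in the inputs. The summed level of 5 neuronal markers (elav, nSyb, brp, Syt1 and Rdl) had the same order of groups as the dpr and DIP genes, with 5727 to 6630 CPM in Pum xRIP, 424 to 680 CPM in control xRIP and 2471 to 4067 CPM in input, and 5, 4 and 5 of the 5 were detected in every library of these groups. The order held for brp, Syt1 and Rdl singly but not for nSyb, with 684 to 1001 CPM in Pum xRIP and 789 to 1650 CPM in input, nor for elav, with 139 to 229 CPM in Pum xRIP and 112 to 161 CPM in input. For 4 photoreceptor markers the sums were 9296 to 10655 CPM in Pum xRIP, 1918 to 2993 CPM in control xRIP and 8978 to 10999 CPM in input. Singly, norpA lay above input, with 6630 to 7355 CPM in Pum xRIP and 2396 to 3063 CPM in input. Below input lay trp (191 to 630 against 1863 to 2576 CPM) and ninaC (154 to 330 against 986 to 1478 CPM). The ranges of ninaE overlapped (1700 to 3049 against 2653 to 4511 CPM). For 2 fat body markers the sums were 2379 to 4524 CPM in Pum xRIP, 1255 to 2093 CPM in control xRIP and 3409 to 9452 CPM in input. For 4 glial markers the ranges were 149 to 263 CPM in Pum xRIP, 81.6 to 392 CPM in control xRIP and 421 to 624 CPM in input, with repo at 0 in control xRIP, and for 3 muscle markers they were 419 to 525, 1021 to 1319 and 709 to 1536 CPM. The part of these differences in the results below was not tested.

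In the inputs the family members were mostly transcripts of modest level. The highest was dpr12, with 208, 179, 136 and 160.1 CPM in the pum, w118, fne and rbp9 inputs, followed by dpr14 with 143, 84.2, 103 and 123 CPM. These 2 genes overlapped, and every input level of dpr14 lay above those of dpr20. The next were dpr20 at 41.4 ± 5.02 CPM, dpr8 at 35.1 ± 9.95 CPM and dpr18 at 30.5 ± 18.2 CPM (SD, n = 4), and the levels of these 3 overlapped. The median over the 29 members that passed the expression filter was 18.1 CPM, against 24.4 CPM over all 7645 genes that passed, and 9 members lay above that value. The members that did not pass were dpr16, DIP-iota and DIP-lambda. DIP-iota was detected only in the rbp9 input, at 0.771 CPM, and DIP-lambda only in the w118 and fne inputs, at 0.533 and 0.357 CPM. A further 5 members (dpr15, DIP-alpha, DIP-beta, DIP-gamma and DIP-zeta) passed the filter only because Pum xRIP libraries were counted, so a difference in these was favoured by the filter itself.

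Enrichment with Pum was measured by comparing Pum xRIP with input. In a fit of all 12 libraries with edgeR, calls needed both an adjusted p under 0.05 and a log2 fold change beyond 1 in either direction. By this rule dpr5 and dpr10, 2 of the 29 members tested, were higher in Pum xRIP and 0 were lower, where 0.549% of all genes tested were called higher and 4.87% lower. At an unadjusted p below 0.05, 8 members were higher and 1 was lower (edgeR), where 2.41% and 15.8% of all genes tested were. The median log2 fold change was 1.70 over the 29 members and −0.54 over all genes tested, and 22 of the 29 were above 0. The number called depended on the fit, and the share of all genes called was counted in the main fit only. Without the fne and rbp9 inputs 0 members were called higher, whereas DESeq2 on the 3 groups called 8 higher and 1 lower, and edgeR on only the 2 groups compared called 10 higher and 1 lower. Leaving out any single input, or Pum xRIP replicate 2 or 3, left 1 member called (dpr10), without control xRIP replicate 2 there were 4, and without control xRIP replicate 4 there were 6 (dpr1, dpr5, dpr8, dpr10, dpr12 and DIP-kappa).

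For dpr10 (FBgn0052057, chr3L:10147454-10186108, minus strand), a partner of DIP-alpha, the Pum xRIP libraries held 427, 243, 365 and 429 CPM, control xRIP had no counts, and the pum, w118, fne and rbp9 inputs held 27.2, 14.4, 39.2 and 20.2 CPM. Every Pum xRIP library thus lay above every input by a wide margin. The log2 fold change over input was 3.86 ± 0.59 SE (edgeR, adjusted p = 0.00601), and without the fne and rbp9 inputs the adjusted p was 0.0608 (edgeR), the highest of 19 alternatives. The gene overlaps CG6628 on the same strand.

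For dpr5 (FBgn0037908, chr3R:11499984-11505951, plus strand), the Pum xRIP libraries held 134, 197, 283 and 167 CPM, control xRIP again had no counts, and the inputs held 20.2, 13.4, 28.3 and 20.6 CPM. The Pum xRIP libraries did not overlap the inputs. The log2 fold change over input was 3.24 ± 0.73 SE (edgeR, adjusted p = 0.0243). This call was less stable and was lost in 8 of 19 alternatives, 6 of which left out 1 library (each input in turn, and Pum xRIP replicates 2 and 3), with adjusted p up to 0.214 (edgeR).

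Separation of the libraries was more frequent than calls. In 12 of the 29 members tested every Pum xRIP library lay above every input, where 5.57% of all genes tested showed this order. In 11 of the 29, all among these 12, every Pum xRIP library also lay above every control xRIP library. Of all genes tested, 4.47% lay above both groups in this way. These 11 genes were dpr1, dpr4, dpr5, dpr8, dpr10, dpr12, dpr13, dpr15, dpr19, DIP-epsilon and DIP-kappa, of which dpr15 passed the filter only through Pum xRIP libraries. The remaining gene of the 12, dpr9, held 69.5 to 170.5 CPM in Pum xRIP, 73.3 CPM in 1 control xRIP library and 19.2 to 28.7 CPM in input.

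Several dpr genes had changes as large as those of dpr5 and dpr10 but were not called in the fit of 3 groups. With edgeR on only the 2 groups compared, dpr1, dpr5, dpr8, dpr9, dpr10, dpr12, dpr13, dpr15, dpr19 and DIP-kappa were called higher than input. For dpr1 the Pum xRIP libraries held 475, 377, 371 and 315 CPM, 1 of 4 control xRIP libraries held 9.84 CPM, and the inputs held 23.3, 32.9, 32.2 and 14.6 CPM. Relative to input its log2 fold change was 3.90 ± 1.28 SE (edgeR, adjusted p = 0.0930), which did not pass. For dpr19 the Pum xRIP libraries held 485, 285, 411 and 203 CPM, 1 control xRIP library held 11.8 CPM, and the inputs held 30.7, 29.3, 33.3 and 17.3 CPM. This amounted to a log2 fold change of 3.64 ± 1.33 SE (edgeR, adjusted p = 0.125).

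The most abundant member, dpr12, whose product binds DIP-delta, reached 1956, 1472, 1421 and 1626 CPM in Pum xRIP and was found in 1 control xRIP library at 6.34 CPM. Its lowest Pum xRIP value was several times its highest input of 208 CPM. The log2 fold change over input was 3.24 ± 0.95 SE (edgeR, adjusted p = 0.0656).

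For dpr8, the 165 to 323 CPM of Pum xRIP (323, 165, 214 and 267) stood against 21.1 CPM in 1 control xRIP library and 48.9, 35.5, 27.0 and 28.8 CPM in the inputs, for a log2 fold change of 2.79 ± 1.44 SE (edgeR, adjusted p = 0.371). The gene dpr13 ranged from 156 to 269 CPM in Pum xRIP, from 0 to 29.4 CPM in control xRIP and from 13.5 to 23.7 CPM in input. Neither gene passed in the fit of 3 groups although the libraries were separated, and both were called in the fit of 2 groups.

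Low members showed the same separation with less certainty, and dpr15 passed the expression filter only through Pum xRIP libraries. For dpr15, a partner of DIP-gamma, the Pum xRIP libraries held 60.5, 16.4, 24.8 and 52.8 CPM, control xRIP had no counts and the inputs held 1.4, 3.53, 4.29 and 2.99 CPM, a log2 fold change of 3.65 ± 1.64 SE (edgeR, adjusted p = 0.265). For dpr4 the Pum xRIP libraries held 31.3, 22.6, 119.7 and 23.6 CPM, control xRIP had no counts and the inputs held 16.5, 22, 15.0 and 7.03 CPM. Pum xRIP replicate 3 stood far above its group, and the lowest Pum xRIP library exceeded the w118 input by little.

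Among the DIP genes, DIP-kappa was the most abundant in Pum xRIP. Its Pum xRIP libraries held 228, 379, 193 and 112 CPM, 1 control xRIP library held 16.7 CPM, and the inputs held 44.6, 16.9, 16.5 and 11.2 CPM. Relative to input the log2 fold change was 3.35 ± 1.5 SE (edgeR, adjusted p = 0.243). DIP-epsilon was the only member with counts in 3 control xRIP libraries. It held 37.2, 31.5, 79.4 and 91.6 CPM in Pum xRIP, 0.276, 0, 26.6 and 26.8 CPM in control xRIP and 15.4, 26.7, 20.5 and 9.63 CPM in input. Its lowest Pum xRIP library exceeded the highest other library by less than the spread within Pum xRIP.

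Other members varied widely between Pum xRIP libraries, and these overlapped the inputs. For dpr2 the Pum xRIP libraries held 64.6, 0, 27.9 and 123 CPM against 25.4, 21.1, 18.7 and 16.0 CPM in input. For dpr11 they held 37.8, 173, 165 and 8.52 CPM and the inputs 18.6, 18.1, 16.1 and 10.8 CPM, so that replicate 4 lay below every input. DIP-eta held 14, 0, 32.4 and 16.6 CPM in Pum xRIP, and the inputs held 8.51, 6.73, 5.45 and 3.76 CPM. All of these 3 genes had no counts in control xRIP. The same overlap was found at 0 to 72.2 CPM in Pum xRIP and 15.2 to 16.7 CPM in input for dpr3, at 0 to 28.5 CPM in Pum xRIP and 8.77 to 33.6 CPM in input for dpr7, and at 0 to 13.6 CPM in Pum xRIP and 0.762 to 4.20 CPM in input for DIP-zeta.

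For some members, among the 5 highest in input, Pum xRIP overlapped input and no call was made. The gene dpr14, second in level among the inputs, held 96.5, 58.5, 88.8 and 82.1 CPM in Pum xRIP, 0, 0, 21.5 and 40.7 CPM in control xRIP and 143, 84.2, 103 and 123 CPM in input. Its log2 fold change of −0.47 ± 1.31 SE (edgeR, adjusted p = 0.998) lay near the median of all genes tested, and its sign turned to 0.0057 with DESeq2 size factors. The gene dpr20 held 80.4, 82.0, 93.8 and 25.8 CPM in Pum xRIP, 0, 0, 13.5 and 48.7 CPM in control xRIP and 42.1, 46.7, 42.4 and 34.6 CPM in input, a log2 fold change of 0.77 ± 1.48 SE (edgeR, adjusted p = 0.986). For dpr18 the values were 0, 0.164, 48.5 and 31.4 CPM in Pum xRIP, 106, 0, 42.0 and 0 CPM in control xRIP and 10.9, 20.9, 38.5 and 51.8 CPM in input, and all groups overlapped.

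In 2 members, dpr21 and DIP-theta, every Pum xRIP library lay below every input, where 22.6% of all genes tested had this order, and neither was called lower. The gene dpr21 held 0 to 0.925 CPM in Pum xRIP and 1.14 to 26.2 CPM in input. DIP-theta had no counts in Pum xRIP and 3.30 to 8.33 CPM in input, which makes it at least 35.8-fold lower in Pum xRIP if 3 counts over the 4 libraries are taken as the floor.

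**Figure D2:**
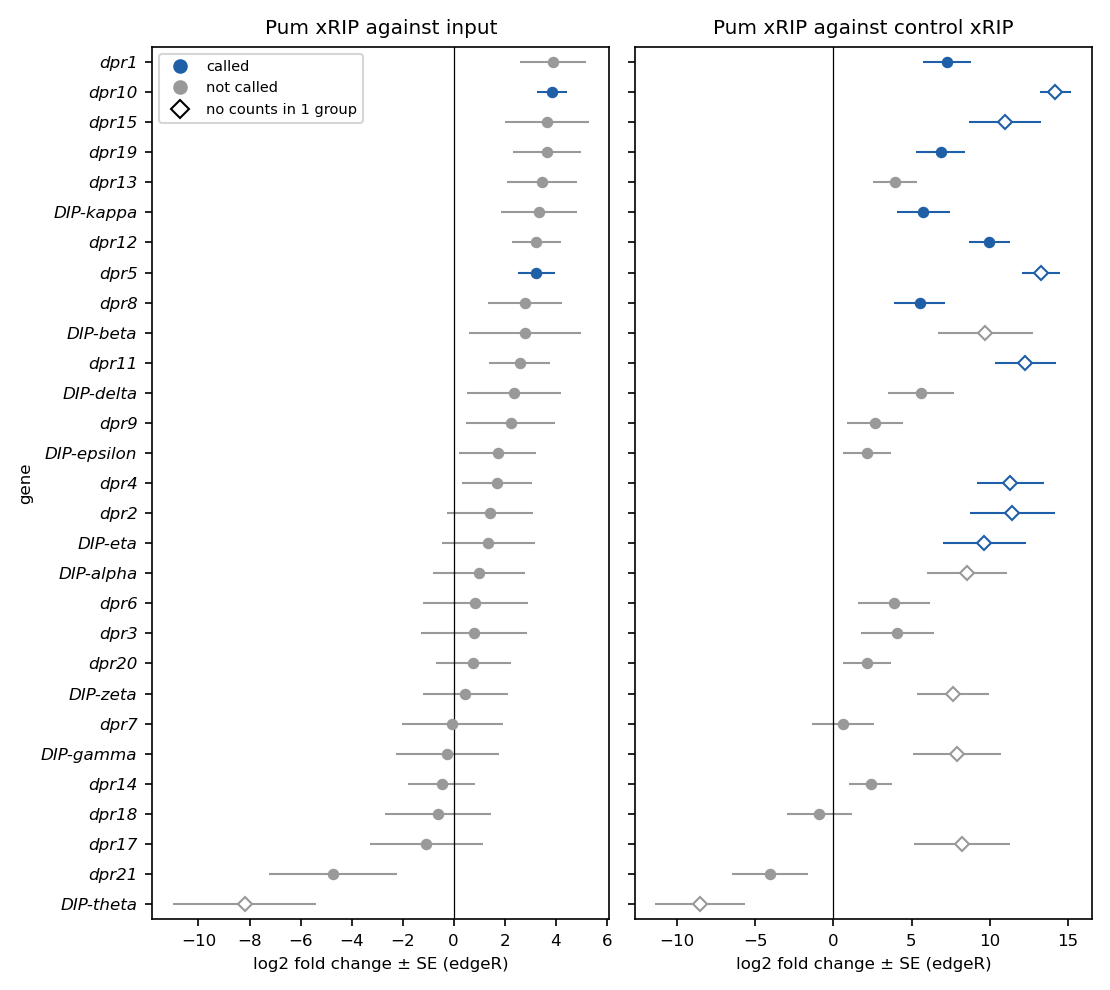
Log2 fold change with its SE (edgeR) for the 29 members tested, in Pum xRIP against input (left) and Pum xRIP against control xRIP (right), ordered by the left panel. Blue marks called members, and open diamonds mark members with no counts in 1 of the groups, whose fitted value depends on the prior count. In the left panel 22 members lie above 0 and 2 are blue, and in the right panel 26 lie above 0 and 12 are blue.

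To separate binding by Pum from RNA that adheres to the beads, Pum xRIP was compared with control xRIP. By the same edgeR rule, 12 members were higher in Pum xRIP and 0 were lower, where 7.72% of all genes tested were called higher and 4.45% lower, and at an unadjusted p below 0.05 the counts were 19 and 1, where 19.3% and 13.2% of all genes tested passed. The 12 were dpr1, dpr2, dpr4, dpr5, dpr8, dpr10, dpr11, dpr12, dpr15, dpr19, DIP-eta and DIP-kappa. Among them dpr15 passed the filter only through Pum xRIP libraries. In 14 members every Pum xRIP library lay above every control xRIP library, where 9.95% of all genes tested did, and in 0 members every one lay below, where 5.7% did. The median log2 fold change of the 29 members was 6.87 as fitted and 5.06 when each member with no counts in 1 group was put at its bound, and the median over all genes tested was 0. Both comparisons share the Pum xRIP libraries.

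Most members had counts in at most 1 control xRIP library. In 15 of the 32 members no control xRIP library had a count, in 11 members 1 library did, in 5 members 2 did, and in DIP-epsilon 3 did. Among the members tested, 12 of 29 had no counts there, where 14.5% of all genes tested had none. Folds for such genes are bounds, set with 3 counts over the 4 libraries. They cover counting error only and may be too high. Members found in 1 control xRIP library held from 10 counts (DIP-delta) to 262 counts (dpr9) in it. By this floor dpr10 was at least 1705-fold higher in Pum xRIP, dpr5 at least 909-fold, dpr11 at least 447-fold, dpr2 at least 251-fold, dpr4 at least 229.7-fold, dpr15 at least 179.9-fold and DIP-eta at least 73.3-fold. The adjusted p ranged from 1.51e-05 for dpr10 to 0.0377 for DIP-eta (edgeR).

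Of the 11 members with counts in 1 control xRIP library, 5 were called. The log2 fold change over control xRIP was 9.96 ± 1.31 SE for dpr12 (edgeR, adjusted p = 0.000334), 7.27 ± 1.51 for dpr1 (adjusted p = 0.00740), 6.87 ± 1.56 for dpr19 (adjusted p = 0.0124), 5.76 ± 1.69 for DIP-kappa (adjusted p = 0.0395) and 5.52 ± 1.64 for dpr8 (adjusted p = 0.0417). The other 6 were not called, with 5.60 ± 2.13 for DIP-delta (adjusted p = 0.0758), 4.09 ± 2.34 for dpr3, 3.89 ± 2.29 for dpr6, 2.66 ± 1.76 for dpr9, −4.06 ± 2.44 for dpr21 and DIP-theta with no counts in Pum xRIP, at least 44.9-fold lower there (adjusted p = 0.0647, edgeR). The calls of dpr8 and DIP-kappa were each lost in 14 of 20 alternatives, among them those without any 1 of the inputs, of the Pum xRIP libraries or of control xRIP replicates 1 to 3, with adjusted p up to 0.111 for dpr8 (edgeR). That of DIP-eta was lost in 12 of 18, among them those without any 1 input, any 1 control xRIP library or Pum xRIP replicate 1, 3 or 4, with adjusted p up to 0.149 (edgeR). Those of dpr2, dpr4 and dpr15 were lost in 1, 1 and 2 alternatives, none of which left out a single library, and those of dpr1, dpr5, dpr10, dpr11, dpr12 and dpr19 in none of 20.

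Recovery without the tag was assessed from control xRIP and input. By the same edgeR rule, 7 members (dpr2, dpr4, dpr5, dpr10, dpr11, dpr12 and dpr15) were lower in control xRIP and 0 were higher, where 10.7% of all genes tested were called lower and 1.82% higher, and at an unadjusted p below 0.05 the counts were 15 and 0, where 22.6% and 3.36% of all genes tested passed. The median log2 fold change was −3.30 over the 29 members and −0.83 over all genes tested. In 19 of the 29 every control xRIP library lay below every input, where 31.8% of all genes tested did, and in 0 every one lay above, where 4.22% did. By the floor of 3 counts, dpr10 was at least 117.6-fold lower in control xRIP, dpr5 at least 96.1-fold, dpr2 at least 94.5-fold, dpr11 at least 74.0-fold, dpr4 at least 70.5-fold and dpr15 at least 14.2-fold. The log2 fold change of dpr12 was −6.72 ± 1.15 SE (edgeR, adjusted p = 0.00238). The calls of dpr2 and dpr15 were lost whenever any 1 input was left out, and adjusted p reached 0.118 and 0.197 (edgeR).

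Members with more PREs had higher log2 fold changes over input. The element was found in 68.75% of the 32 members, in 75.9% of the 29 members tested and in 23.6% of all genes tested with an annotated 3′ UTR. The 3′ UTRs of the members are long, and their median length was 1066 nt (1251 nt for the 29 tested) where that of all genes tested was 344.5 nt. Among 3′ UTRs of 1 kb or more it was found in 17 of 18 members against 51.5% of all genes tested, and among those of 400 nt to 1 kb in 5 of 11 members against 27.2%. The reversed sequence ATANATGT, a control of like composition, occurred in 25.0% of the members, 27.6% of those tested and 20.4% of all genes tested. In 3′ UTRs of 1 kb or more this sequence occurred in 38.9% of the members and 50.0% of all genes tested. In those of 400 nt to 1 kb the shares were 9.09% and 21.9%. Per kb of 3′ UTR the members held 1.11 elements (1.13 for the 29 tested) and all genes tested 0.469.

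The 10 members without the element included none for which every Pum xRIP library lay above all others, and none called higher than control xRIP. They were dpr7, dpr14, dpr16, dpr18, dpr20, dpr21, DIP-gamma, DIP-theta, DIP-iota and DIP-lambda. The 7 of them that were tested had a median log2 fold change over input of −0.47, from −8.19 to 0.77, where the lowest is the fitted value of DIP-theta and depends on the prior count. Of the 8 members with 1 element, DIP-epsilon showed Pum xRIP libraries that all exceeded the others, and 2 (dpr2 and DIP-eta) were called higher than control xRIP. The median of the 8 was 1.11, from −1.07 to 2.23. Of the 14 members with 2 or more, 10 showed Pum xRIP libraries that all exceeded the others and 10 were called higher than control xRIP, with a median of 3.24, from 1.002 to 3.90. Across the 29 members tested, Spearman's rho between the log2 fold change over input and the number of elements was 0.864. It was 0.756 with elements per kb, 0.427 with 3′ UTR length, 0.364 with the reversed sequence and 0.266 with the level in input. These are descriptions across genes, which share the same libraries and are not independent replicates. The counts, medians and correlations include dpr15, DIP-alpha, DIP-beta, DIP-gamma and DIP-zeta, which passed the filter only through Pum xRIP libraries.

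**Figure D3:**
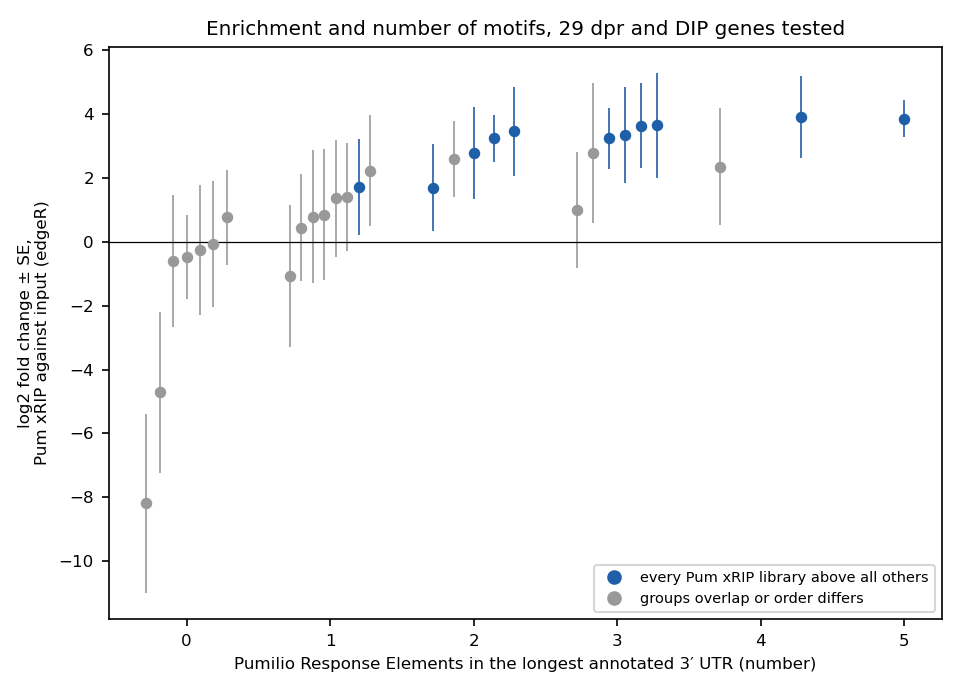
Log2 fold change of Pum xRIP against input with its SE (edgeR) by the number of PREs in the longest annotated 3′ UTR, for the 29 members tested, with points spread sideways within a number. Blue marks members for which every Pum xRIP library lay above all others, 10 of which have 2 or more elements.

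The other 4 of these 14 members were dpr11 and 3 DIP genes of low level in input. DIP-alpha, with 3 elements that all lie in the last 500 bases of its 3′ UTR, held 21.1, 0, 7.59 and 0 CPM in Pum xRIP, and the inputs held 5.21, 2.87, 4.20 and 2.02 CPM. DIP-beta, with 3 elements, held 0, 0, 11.8 and 52.6 CPM in Pum xRIP, and the inputs held 2.03, 2.33, 1.16 and 3.76 CPM. DIP-delta, with 4 elements, held 25.6, 73.4, 51.6 and 7.31 CPM in Pum xRIP, and the inputs held 2.92, 5.87, 11.1 and 10.9 CPM. In each of these 3 genes at least 1 Pum xRIP library lay below an input.

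Some of the proteins are known binding partners, and their genes were set side by side. The receptor gene DIP-alpha and its ligand gene dpr6 overlapped with input, whereas the ligand gene dpr10 was called higher. With 1 element against the 5 of dpr10, dpr6 held 0, 65.1, 22.4 and 27.3 CPM in Pum xRIP, and the inputs held 17.9, 14, 11.8 and 19.7 CPM. Of the 4 ligand genes of DIP-gamma, dpr11 and dpr15 were called higher than control xRIP, while dpr16 and dpr17 were each detected in 1 Pum xRIP library, at 20.4 and 23.6 CPM. DIP-gamma itself was detected in 1 Pum xRIP library, at 18.8 CPM. The genes dpr15, DIP-alpha and DIP-gamma passed the expression filter only through Pum xRIP libraries. For DIP-delta and dpr12 every Pum xRIP library lay above every control xRIP library, where 9.95% of all genes tested showed this order. Of the pair, only dpr12 was called higher than control xRIP. Relative to input the libraries of dpr12 were separated, those of DIP-delta overlapped, and neither gene was called. Differences between partners were not tested.

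The deposited table also separates the 3′ ends of a gene into numbered clusters. The members had 257 clusters, of which 55 in 26 genes passed the filter. In Pum xRIP, 5 clusters from 5 genes were called higher than in input and 0 lower (edgeR), where 0.211% of all clusters tested were called higher and 9.48% lower. They were cluster 1 of dpr10, cluster 3 of dpr5, cluster 11 of dpr1, cluster 18 of dpr12 and cluster 9 of dpr19. Set against control xRIP, 31 clusters from 17 genes were called higher and 0 lower (edgeR), where 8.91% of all clusters tested were called higher and 3.07% lower. Without Pum xRIP replicate 3 there were 3 clusters higher than input, without any single input 2, and without the fne and rbp9 inputs 1 and 10 in these 2 comparisons. The 17 genes comprised the 12 called at gene level and dpr6, dpr9, dpr13, dpr14 and DIP-delta.

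The cluster with the most certain change was the leading end of dpr12. Cluster 18 of dpr12 held 1542, 958, 899 and 1071 CPM in Pum xRIP and 131.2, 118.2, 95.8 and 100.8 CPM in the pum, w118, fne and rbp9 inputs, a log2 fold change of 2.97 ± 0.36 SE (edgeR, adjusted p = 0.00366), and had no counts in control xRIP. It made up 67.8% of the counts of dpr12 in Pum xRIP and 65.6% in input. The minor cluster 5 of dpr12 took 0 to 2.26% of the counts in Pum xRIP libraries and 5.25% to 8.30% in inputs, without overlap. It was picked after seeing its values and had counts in 2 of the 4 Pum xRIP libraries. Its usage did not differ by the test (diffSpliceDGE, unadjusted p = 0.197). Shares of the leading cluster in Pum xRIP and input are given next for dpr5 (cluster 3, 89.6% in Pum xRIP and 87.3% in input), dpr4 (cluster 6, 88.1% and 91.3%), DIP-kappa (cluster 8, 73.6% and 78.8%), dpr20 (cluster 1, 91.5% and 97.5%) and DIP-eta (cluster 1, 100% and 99.6%). The leading cluster was the same in Pum xRIP and input in 19 of the 29 members with 2 or more clusters and counts in both groups. These are not the members tested, since dpr16 is among them and DIP-theta is not.

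The shares of some ends are given as a description, since none of these genes passed the test of usage below. Cluster numbers were taken to follow genome order, and the direction called distal rests on this reading. In dpr10 the end in cluster 11 made up 72.6% of the counts in input and 33.8% in Pum xRIP, and the most distal tested end, cluster 1, held 186, 65.4, 127 and 91.1 CPM in Pum xRIP against 1.14, 3.27, 8.48 and 2.601 CPM in the pum, w118, fne and rbp9 inputs. In dpr8 the leading end was cluster 16 in Pum xRIP (69.7% of the counts) and cluster 5 in input (51.0%). In dpr14 it was cluster 8 in Pum xRIP (44.4%) and cluster 20 in input (70.8%), with shares of cluster 8 from 26.0% to 99.7% between Pum xRIP libraries.

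A test of 3′-end usage called none of the 14 members with 2 or more tested clusters (diffSpliceDGE of edgeR, lowest adjusted p = 0.262 for dpr13), where 12.1% of all genes tested were called, and 0 had an unadjusted p below 0.05. As a description, the most distal tested cluster took a larger share of the tested counts in Pum xRIP than in input in 10 of the 14, where 55.3% of all genes with 2 or more tested clusters showed this. Per library the shares did not overlap in dpr8 (57.4% to 88.4% in Pum xRIP, 36.5% to 55.0% in input), dpr10 (27.3% to 59.6% in Pum xRIP, 4.97% to 23.6% in input) and DIP-delta (42.9% to 100% in Pum xRIP, 5.26% to 37.8% in input), with Pum xRIP above, where 14.3% of those genes showed this. In dpr17 the only Pum xRIP library with counts had 23.7%, below the 41.5% to 85.1% of the inputs, where 13% of those genes had Pum xRIP below. In the other 10 members the ranges overlapped.

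**Figure D4:**
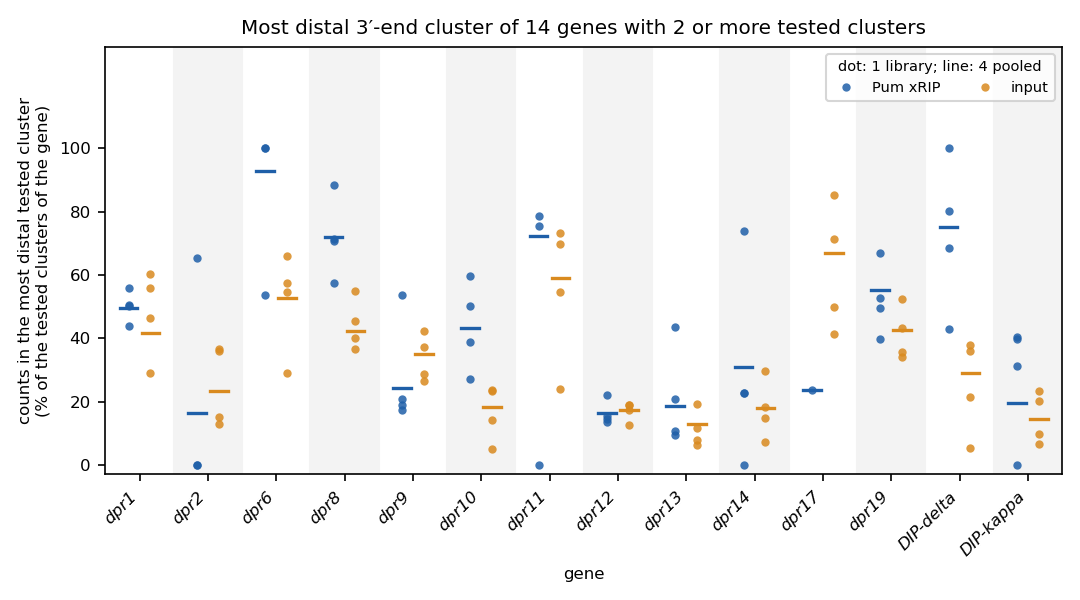
Counts in the most distal tested 3′-end cluster as a percentage of the tested clusters of the gene, for the 14 members with 2 or more such clusters, Pum xRIP left and input right. Dots are libraries with at least 10 counts in these clusters and lines the 4 libraries pooled, and the dots of dpr8, dpr10 and DIP-delta do not overlap between Pum xRIP and input.

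Other surface proteins of the immunoglobulin superfamily were counted for comparison, from lists chosen with earlier results of these data known. Of 3 tested relatives and shared partners of the DIPs, klg, which encodes an adhesion protein needed in photoreceptor development and memory, was called higher than input at 772 ± 336 CPM in Pum xRIP against 94.6 ± 52.8 CPM in input (SD, n = 4 each, log2 fold change 3.03 ± 0.58 SE, adjusted p = 0.0103, edgeR). The other 2 had log2 fold changes of −0.29 (Lac, also the median of the 3) and −1.85 (wrapper) and were not called. The beat and side genes encode another network of receptors and ligands that guides axons. Of 20 tested, 9 showed Pum xRIP libraries that all exceeded the others, beat-IIIc was called higher than input, beat-IIb was called lower, and 5 were called higher than control xRIP (edgeR), with a median log2 fold change over input of 1.71. In beat-IIIc the level was 573 ± 192 CPM in Pum xRIP against 55.9 ± 10.6 CPM in input (SD, n = 4 each, log2 fold change 3.36 ± 0.54 SE, adjusted p = 0.00434, edgeR). Of 18 other neuronal members of the superfamily tested, 4 showed Pum xRIP libraries that all exceeded the others, 0 were called higher than input, Dscam3 was called lower and 2 were called higher than control xRIP (edgeR), with a median log2 fold change over input of 0.24. Of all genes tested, 4.47% showed Pum xRIP libraries that all exceeded the others. Against input 0.549% of them were called higher and 4.87% lower, with a median log2 fold change of −0.54. Against control xRIP 7.72% were called higher. Differences between these lists and the dpr and DIP genes were not tested.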

How the data were processed

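RNA 3′ ends were measured in 12 libraries, with groups taken from the labels. Reads were cleaned by the authors with fastp and aligned to dm6 with STAR (version 2.6.1b in the submitters' processing notes). They discarded ends beside genomic runs of A and merged neighbouring ends into clusters. Deposited values are raw counts for each gene and each cluster, without normalization. The fne and rbp9 columns match no single label and were used as inputs without a number. Tables prepared for the authors' differential tests were not used.

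Differences were tested in edgeR 4.0.16 (R 4.3.3) by its quasi-likelihood test with TMM scaling, the default expression filter and Benjamini-Hochberg adjustment over all genes or clusters tested, in 1 fit of 3 groups, and ends with diffSpliceDGE. The SE of a log2 fold change was derived from its size and the F statistic of the test, and edgeR does not estimate it. Alternatives were DESeq2 1.42.0, other scalings, no filter, fits of 2 groups, and libraries left out. Scripts were tested on simulated data. 3′ UTRs came from Ensembl release 115 (BDGP6.54), whose start codons matched the dm6 sequence used. In 15 members another annotated feature overlaps on the same strand, where counts may be shared.

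Members and lists were chosen with earlier results of these data known. Values per library are given for members called in any gene comparison, the 5 highest in input and those with counts in 3 or more control xRIP libraries, and for others chosen after their values were seen. Clusters are named where called, where leading in input, or after seeing their values. Genes outside the families are named where called in Pum xRIP against input.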

Additional observations from a re-analysis of the deposited data

Results flagged for a closer look

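In 17 of 78 groups of 4 libraries 1 library stood apart from the other 3 by Dixon's criterion. In 15 of the 17 the other 3 libraries were at 0, where any count meets the criterion, so the share of about 1 in 20 that chance gives does not apply to these. In 11 of these a single control xRIP library held all the counts of its group. These were dpr1 at 9.84 CPM, dpr3 at 6.29 CPM, dpr8 at 21.1 CPM and DIP-kappa at 16.7 CPM in replicate 4, dpr6 at 7.70 CPM, dpr21 at 29.8 CPM and DIP-delta at 3.21 CPM in replicate 3, dpr9 at 73.3 CPM and dpr19 at 11.8 CPM in replicate 2, and dpr12 at 6.34 CPM and DIP-theta at 28.4 CPM in replicate 1.

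In Pum xRIP, replicate 3 stood apart for dpr4, at 119.7 CPM against 22.6 to 31.3 CPM in the others, and for dpr16, at 20.4 CPM against 0. Replicate 4 stood apart for dpr17 at 23.6 CPM and DIP-gamma at 18.8 CPM, both against 0 in the others, and for DIP-zeta at 13.6 CPM against 0 to 2.08 CPM. In input, DIP-iota was found only in the rbp9 input, at 0.771 CPM. The cause of these single-library values was not tested.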

How the results depend on the processing

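Counts of called members depended on the fit. The share of all genes called was counted in the main fit only, so the other counts have no background beside them. For Pum xRIP against input, 2 genes were called higher, against 1 without a filter, 8 with DESeq2 on 3 groups, 10 with edgeR on 2 groups, 13 with DESeq2 on 2 groups, 0 without the fne and rbp9 inputs and 1 to 6 with 1 library left out. Lower calls numbered 0, against 1, 1 and 2 in those DESeq2, edgeR and DESeq2 fits and 0 to 2 with 1 library left out. For Pum xRIP against control xRIP, 12 were higher, against 18 and 14 with DESeq2 on 3 and 2 groups, 8 with edgeR on 2 groups, 7 without those inputs and 9 to 13 with 1 library left out, and DESeq2 on 3 groups called 1 lower. For control xRIP against input, 7 were lower, against 14 with DESeq2 on 2 groups, 4 without those inputs and 5 to 12 with 1 library left out. Of clusters, 5 were higher than input, against 1 without a filter, 15 with edgeR on 2 groups (1 lower), 1 without those inputs and 2 to 7 with 1 library left out (0 to 3 lower), and 31 were higher than control xRIP, against 14, 20, 10 and 16 to 31 under the same settings. Usage calls numbered 0, and 0 to 2 with 1 library left out. PREs were found in 22 members, and in 11 within the last 500 bases of the 3′ UTR.

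Deviations of same-numbered xRIP libraries from their group means were little correlated (correlations 0.0031 to 0.0246). Pum xRIP replicates 3 and 4 correlated best with the control xRIP library of the same number, and replicates 1 and 2 with another. Since many genes had no counts in single xRIP libraries, this check cannot decide whether the numbers pair samples. With the replicate block, 8 genes and 11 clusters were higher than control xRIP, against 8 genes and 20 clusters in the same fit without it. The block lost dpr4 and dpr15 and gained dpr8 and DIP-kappa. Signs turned for dpr14 in Pum xRIP against input (−0.47, against 0.00571 with DESeq2 size factors and 0.00574 with DESeq2 on 3 groups) and for dpr18 (−0.61, against 0.30 without the fne and rbp9 inputs). Scaling shifted the median over all genes tested, which changes are relative to. Under TMM it was −0.54 for Pum xRIP against input, 0 for Pum xRIP against control xRIP and −0.83 for control xRIP against input, under DESeq2 size factors −0.08, 0.27 and −0.66, and under library totals −0.37, 0.27 and −0.96. The cause of these differences was not tested. Depth limits members with few counts, such as DIP-iota and DIP-lambda.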

Other observations

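Members that lie close together in the genome differed in recovery. On 2L, DIP-eta (5601723 to 5617946, 1 PRE) had counts in 3 of 4 Pum xRIP libraries, while DIP-theta (5626291 to 5658560, no PRE), on the same minus strand, had none, although the inputs held similar levels, 6.11 ± 2.01 CPM for DIP-eta and 5.66 ± 2.09 CPM for DIP-theta (SD, n = 4). On 3R, dpr5 (11499984 to 11505951, plus strand) reached 195 ± 63.7 CPM in Pum xRIP and dpr4 (11533483 to 11542949, minus strand) 49.3 ± 47.1 CPM (SD, n = 4), each with 2 PREs. Also on 3R, dpr17 (12094876 to 12111420, 1 PRE) was detected in 1 Pum xRIP library and dpr15 (12138833 to 12158595, 3 PREs) in 4, while the inputs held more dpr17, at 12.4 ± 2.49 CPM, than dpr15, at 3.05 ± 1.22 CPM (SD, n = 4). On 3L, dpr6 (9974651 to 10139360, 1 PRE) averaged 28.7 ± 27.0 CPM in Pum xRIP and dpr10 (10147454 to 10186108, 5 PREs) 366 ± 87.2 CPM (SD, n = 4). Coordinates are those of dm6, and differences between neighbours were not tested.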
